A study of Saccharomyces cerevisiae with 15 samples.

Results

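The genes described here encode the chaperones that fold and sort proteins in the mitochondrial matrix of the budding yeast Saccharomyces cerevisiae, together with the matrix protease Pim1. They were chosen by identity, as the 8 rows of the count table, of 7127 in all, that carry SSC1 (YJR045C), ECM10 (YEL030W), MDJ1 (YFL016C), ZIM17 (YNL310C), HSP60 (YLR259C), HSP10 (YOR020C), HSP78 (YDR258C) and PIM1 (YBL022C), and that rule used no measured value. MGE1, the nucleotide exchange factor of the same Hsp70 system, was left out because 1 of the overexpressed constructs holds its 5' end. All 8 genes passed the filter on low counts in every comparison.

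The series measured mRNA in W303 cells that overexpressed a mitochondrial protein or presequence from the galactose-inducible GAL promoter for 4 h after addition of 1% galactose to cells growing in 2% raffinose. The 5 groups, with 3 biological replicates each, were pdr3Δ cells overexpressing Psd1, wild-type cells overexpressing Psd1, pdr3Δ cells overexpressing MTSMge1-mCherry (residues 1 to 44 of Mge1 fused to a red fluorescent protein), wild-type cells overexpressing MTSMge1-mCherry and wild-type cells overexpressing MTSMss116-mCherry (residues 1 to 53 of Mss116 with the same fluorescent protein), the control presequence. Psd1 is the phosphatidylserine decarboxylase of the inner membrane, whose overproduction is used in this study to impair protein import, and Pdr3 is the transcription factor that drives mitoCPR, a transcriptional response to failing mitochondrial protein import. All strains were MATa with a URA3 marker on the construct, the pdr3 deletion was made with HIS3, and every label also names an empty 2u plasmid. The control presequence was measured in wild-type cells alone and Psd1 carried no mCherry, so the passenger protein and the effect of Psd1 cannot be told apart in these groups.

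Proteins bound for the matrix are made in the cytosol and pulled across the inner membrane by mitochondrial Hsp70 (Ssc1), an essential ATPase. In matrix folding, the cycle of Ssc1 is driven by the J-protein Mdj1 and by Mge1. The solubility of Ssc1 depends on Zim17. Folding is then completed by the barrel-shaped chaperonin Hsp60 with its lid Hsp10. Hsp78, of the ClpB family, pulls proteins out of aggregates, and the Lon-type protease Pim1 degrades what cannot be refolded. In yeast, many chaperone genes of the cytosol and some of the mitochondria are bound by the heat shock factor Hsf1, which recognises alternating GAA and TTC units, while Msn2 and Msn4 bind the shorter stress response element.

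Exact heat shock elements stood upstream of 3 of the 8 genes, HSP60, HSP10 and HSP78. The search covered 500 bp before each start codon in the R64 genome, on both strands, for 3 alternating units (GAANNTTCNNGAA or its reverse complement TTCNNGAANNTTC), which occur upstream of 1.48% of 6000 genes. The stretches are shown because these members later differed between the groups, in the direction of the gene and with the GAA and TTC units in capitals. All are on the minus strand, at chrXII:665160-665252 for HSP60, chrXV:370952-371044 for HSP10 and chrIV:974433-974530 for HSP78.
HSP60: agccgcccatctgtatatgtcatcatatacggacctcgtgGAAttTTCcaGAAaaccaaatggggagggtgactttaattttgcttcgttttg
HSP10: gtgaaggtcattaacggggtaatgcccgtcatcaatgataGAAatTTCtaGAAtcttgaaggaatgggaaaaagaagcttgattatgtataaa
HSP78: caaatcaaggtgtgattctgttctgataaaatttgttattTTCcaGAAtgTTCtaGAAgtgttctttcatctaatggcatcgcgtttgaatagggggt
The units began 210 bp before the start codon of HSP60, 160 bp before that of HSP10 and 247 bp before that of HSP78, where a second overlapping match makes a run of 4 units.

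The other 5 genes held no exact match. The closest stretch differed in 1 of the 9 fixed letters for ZIM17, in 2 for MDJ1 and PIM1 and in 3 for SSC1 and ECM10. A stretch with at most 1 differing letter was found upstream of 21.2% of all genes and one with at most 2 upstream of 86.5%, so these near matches are common ones. The stress response element AGGGG, on either strand, was present upstream of 5 of the 8 genes (SSC1, ECM10, HSP78, MDJ1 and ZIM17) and of 34.1% of all genes. The matches of MDJ1 began 372 and 345 bp before the start codon and that of ZIM17 254 bp before it. They lay beyond the gap to the neighbouring gene, which is 232 bp for MDJ1 and 230 bp for ZIM17. No member carried the pleiotropic drug response element of Pdr1 and Pdr3 (TCCGCGGA, TCCGTGGA, TCCGCGGG or TCCGTGGG, either strand), which was found upstream of 2.55% of all genes. A match describes the letters alone and does not show that a factor binds there.

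Total counts ran from 9128344 to 15953662 per library. PDR3 had 0 or 1 count in each of the 6 pdr3Δ libraries, against 921 to 4469 counts in the 9 wild-type ones. PSD1 averaged 16806 CPM and 16434 CPM in the Psd1 groups, against 211 to 230 CPM elsewhere, where CPM is the count scaled to a common depth by the TMM-normalized library size. MGE1 averaged 8016 and 7521 CPM in the MTSMge1-mCherry groups and MSS116 7171 CPM in the MTSMss116-mCherry group, against at most 320.15 and 577 CPM elsewhere, so no library went against its label. The MATa-specific genes summed to 11852 counts or more in every library and the MATalpha-specific genes to 1579 or fewer. The mitochondrially encoded genes checked gave 3 to 45 counts per library in these mRNA-selected libraries, so whether the cells held a complete mitochondrial genome cannot be told apart from the selection. In bulk RNA, a change in every cell and a change in some of the cells cannot be told apart.

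The 8 genes together took 1.061% ± 0.023 of all counts in pdr3Δ cells with Psd1 and 1.069% ± 0.052 in wild-type cells with Psd1 (SD, n = 3 each). They took 0.639% ± 0.048 in pdr3Δ cells with MTSMge1-mCherry, 0.631% ± 0.044 in wild-type cells with MTSMge1-mCherry and 0.602% ± 0.024 in cells with MTSMss116-mCherry. The Psd1 groups did not overlap with the others. For 5 of the 8 genes (SSC1, MDJ1, HSP60, HSP10 and HSP78) each of the 6 Psd1 libraries lay above all 9 others, a pattern seen in 4.91% of all genes. When the 5 groups were fitted together, 6 of the 8 genes differed among them at an adjusted p of 0.05 or less, against 15.1% of all genes tested. ECM10 (edgeR, adjusted p = 0.184) and PIM1 (edgeR, adjusted p = 0.354) did not pass this test.

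**Figure D1:**
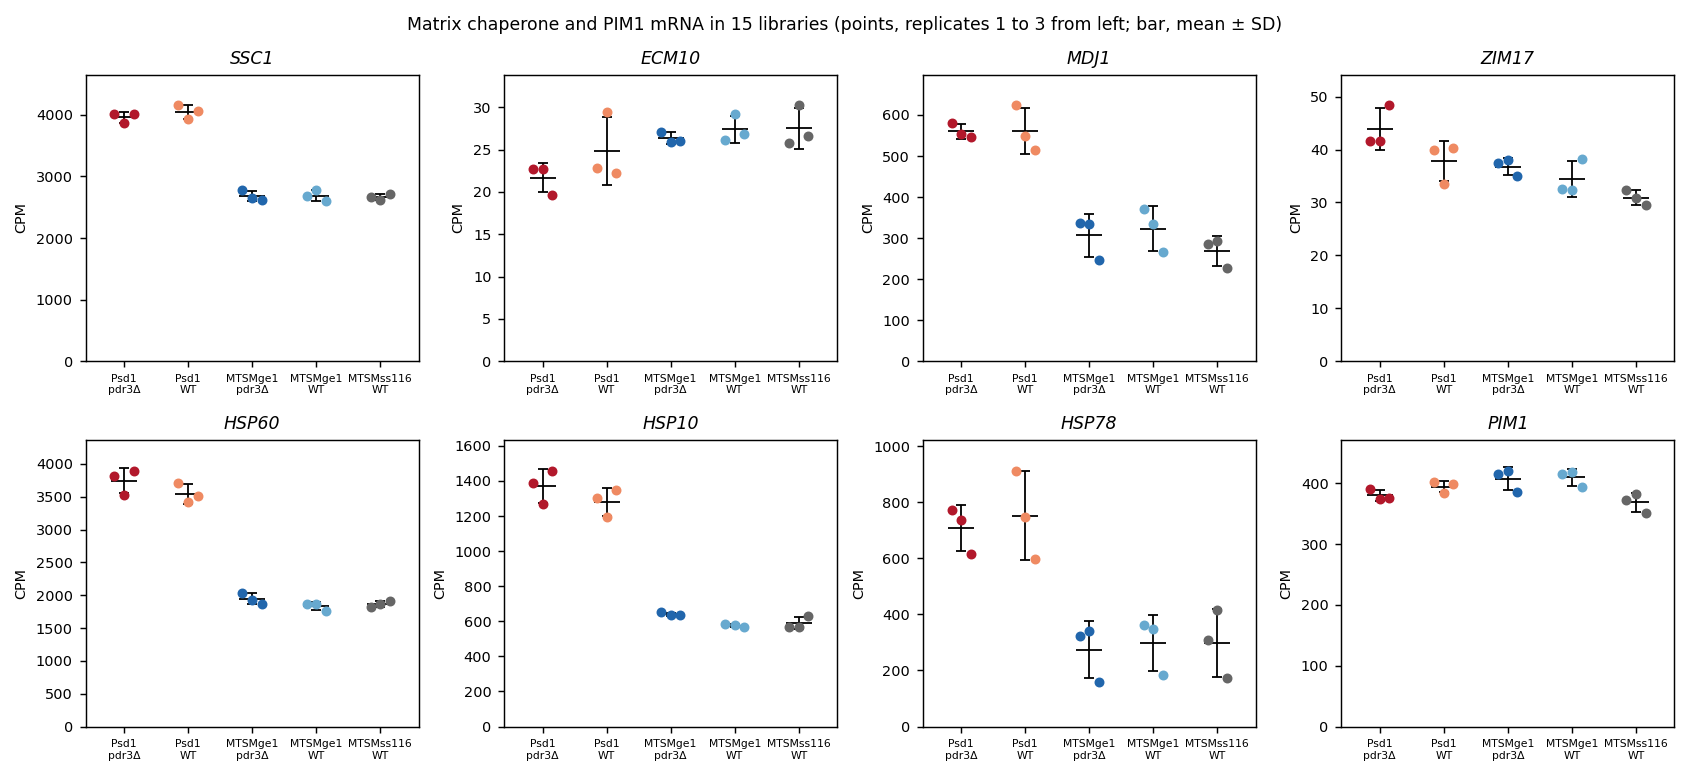
Level of each of the 8 mRNAs (CPM, linear axis from 0) in the 15 libraries, 3 points per group with the mean and SD as bars. SSC1, MDJ1, HSP60, HSP10 and HSP78 are high in both Psd1 groups without overlap with the other 3 groups, while ECM10, ZIM17 and PIM1 overlap.

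SSC1, the mitochondrial Hsp70 of the import motor and of matrix folding, lies at chrX:519638-521602 on the minus strand as a single coding exon. It gave 4015, 3860.3 and 4009 CPM in pdr3Δ cells with Psd1 and 4157, 3934 and 4056 CPM in wild-type cells with Psd1. In pdr3Δ cells with MTSMge1-mCherry it gave 2775, 2647 and 2622 CPM, in wild-type cells with MTSMge1-mCherry 2688, 2787 and 2596 CPM, and with MTSMss116-mCherry 2669.9, 2614 and 2719.7 CPM. The 9 libraries without Psd1 thus all lay below the lowest Psd1 library. SSC1 was 1.53-fold higher in wild-type Psd1 cells than in MTSMss116-mCherry cells (log2 fold change 0.62 ± 0.10, SE; edgeR, adjusted p = 0.0142), and 1.48-fold higher in pdr3Δ Psd1 cells than in the same control (0.57 ± 0.09; edgeR, adjusted p = 0.0136). Of the members called in these 2 comparisons, ZIM17 alone had a smaller fold.

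ECM10, a close relative of SSC1 of minor role, lies at chrV:94644-96578 on the plus strand. It was the least abundant of the 8, with 22.7, 22.7 and 19.7 CPM in pdr3Δ cells with Psd1 and 22.9, 29.4 and 22.2 CPM in wild-type cells with Psd1. The MTSMge1-mCherry libraries ranged from 25.8 to 27.1 CPM in pdr3Δ cells and from 26.2 to 29.2 CPM in wild-type cells, and the MTSMss116-mCherry libraries from 25.7 to 30.2 CPM. The pdr3Δ Psd1 libraries all lay below the lowest control library, and the wild-type Psd1 libraries did not. How many of all genes separate in this way was not counted. ECM10 differed from the control by a log2 fold change of -0.34 in pdr3Δ Psd1 cells (95% interval -0.63 to -0.06; edgeR, adjusted p = 0.169) and by -0.14 in wild-type Psd1 cells (-0.47 to 0.20; edgeR, adjusted p = 0.62), neither of which passed the test. The coding sequences of SSC1 and ECM10 are 75.9% identical over 1935 bases, yet no stretch of 59 bases, the read length, of any of the 8 genes occurs elsewhere in the genome. Within a library, SSC1 exceeded ECM10 per kb of coding length 181 ± 18-fold in pdr3Δ Psd1 cells and 164 ± 28-fold in wild-type Psd1 cells, against 100.2 ± 1.0-fold, 96.8 ± 3.8-fold and 96.0 ± 9.5-fold in the groups of pdr3Δ MTSMge1-mCherry, wild-type MTSMge1-mCherry and MTSMss116-mCherry (SD, n = 3 each).

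MDJ1 encodes the J-protein that delivers substrates to Ssc1 and stimulates its ATPase, and lies at chrVI:104701-106236 on the minus strand. Its level was 582, 553 and 547 CPM in pdr3Δ cells with Psd1 and 624, 548 and 514 CPM in wild-type cells with Psd1. Values of 337, 335 and 247 CPM were found in pdr3Δ cells with MTSMge1-mCherry, 372, 333 and 265 CPM in wild-type cells with MTSMge1-mCherry and 285, 293 and 228 CPM with MTSMss116-mCherry. Replicate 3 was the lowest library of every group, and the Psd1 groups still stood clear of the rest. MDJ1 was 2.12-fold higher in wild-type Psd1 cells than in MTSMss116-mCherry cells (log2 fold change 1.08 ± 0.14, SE; edgeR, adjusted p = 0.00801) and 2.09-fold higher in pdr3Δ Psd1 cells (1.06 ± 0.12; edgeR, adjusted p = 0.00678).

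ZIM17, whose product keeps Ssc1 from aggregating, lies at chrXIV:51907-52431 on the minus strand and was also scarce. It had 41.6, 41.6 and 48.4 CPM in pdr3Δ Psd1 cells and 39.9, 33.6 and 40.3 CPM in wild-type Psd1 cells, against 32.4, 30.9 and 29.5 CPM in MTSMss116-mCherry cells. The MTSMge1-mCherry libraries had 37.4, 38.0 and 34.98 CPM in pdr3Δ cells and 32.6, 32.3 and 38.3 CPM in wild-type cells. Only the pdr3Δ Psd1 libraries lay above every library of the other groups, a separation whose share over all genes was not counted. ZIM17 was 1.42-fold higher in pdr3Δ Psd1 cells than in MTSMss116-mCherry cells (log2 fold change 0.50 ± 0.10, SE; edgeR, adjusted p = 0.0348). In wild-type Psd1 cells the log2 fold change of 0.31 over the same control (95% interval 0.06 to 0.56) did not pass (edgeR, adjusted p = 0.13). The call in pdr3Δ Psd1 cells was lost without any 1 of their 3 libraries or without MTSMss116-mCherry replicate 1 or 3 (edgeR, adjusted p between 0.0831 and 0.138).

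HSP60, the chaperonin, lies at chrXII:663284-665002 on the minus strand, downstream of the heat shock element printed above. It reached 3812, 3530.35 and 3899.8 CPM in pdr3Δ cells with Psd1 and 3712, 3415 and 3518 CPM in wild-type cells with Psd1. It had 2033, 1932 and 1873 CPM in pdr3Δ cells with MTSMge1-mCherry, 1871, 1861 and 1767 CPM in wild-type cells with MTSMge1-mCherry and 1820.15, 1868 and 1908 CPM with MTSMss116-mCherry. Every Psd1 library was thus far above every other one. HSP60 was 2.01-fold higher in pdr3Δ Psd1 cells than in MTSMss116-mCherry cells (log2 fold change 1.00 ± 0.09, SE; edgeR, adjusted p = 0.00631) and 1.92-fold higher in wild-type Psd1 cells (0.94 ± 0.10; edgeR, adjusted p = 0.00467).

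HSP10, the co-chaperonin, is a short gene at chrXV:370524-370844 on the minus strand. Its libraries read 1389, 1267 and 1459 CPM in pdr3Δ cells with Psd1 and 1305, 1193 and 1347 CPM in wild-type cells with Psd1. They read 651, 634 and 636 CPM in pdr3Δ cells with MTSMge1-mCherry, 583, 578 and 565 CPM in wild-type cells with MTSMge1-mCherry and 569.7, 567 and 629 CPM with MTSMss116-mCherry. This was the member with the smallest adjusted p in each comparison of Psd1 with a presequence construct, alone or tied with HSP60. HSP10 was 2.33-fold higher in pdr3Δ Psd1 cells (log2 fold change 1.22 ± 0.10, SE; edgeR, adjusted p = 0.00631) and 2.20-fold higher in wild-type Psd1 cells (1.14 ± 0.10; edgeR, adjusted p = 0.00341) than in MTSMss116-mCherry cells.

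Hsp60 and Hsp10 work as 1 machine, and the ratio of their mRNAs was followed after the values had been seen. Per kb of coding length, HSP10 exceeded HSP60 by 1.96 ± 0.04-fold in pdr3Δ Psd1 cells and 1.93 ± 0.10-fold in wild-type Psd1 cells, against 1.76 ± 0.05-fold in pdr3Δ MTSMge1-mCherry cells, 1.68 ± 0.03-fold in wild-type MTSMge1-mCherry cells and 1.69 ± 0.07-fold in MTSMss116-mCherry cells (SD, n = 3 each). The lowest Psd1 ratio was 1.87 and the highest of the other libraries 1.82. HSP60 stood at 1.08 ± 0.03 and 1.00 ± 0.02 times SSC1 per kb in pdr3Δ and wild-type Psd1 cells, against 0.83 ± 0.01, 0.78 ± 0.02 and 0.80 ± 0.02 times in pdr3Δ MTSMge1-mCherry, wild-type MTSMge1-mCherry and MTSMss116-mCherry cells, again with no overlap between the Psd1 libraries and the rest. No test was run on these ratios, which follow from the levels of the members given above. How many other gene pairs separate in this way was not counted.

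**Figure D2:**
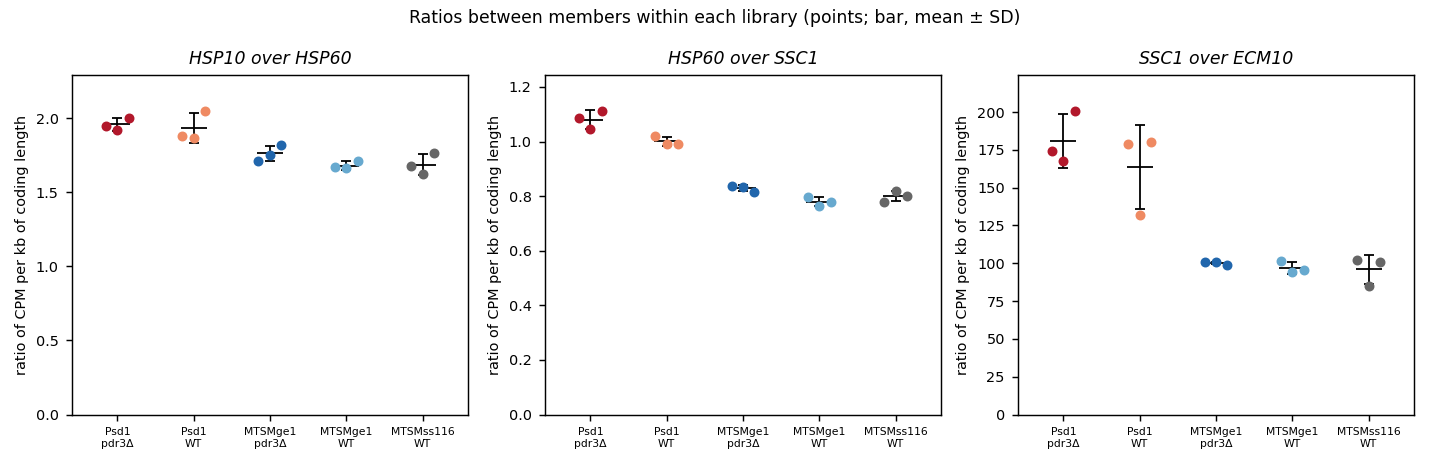
Ratios of CPM per kb of coding length between pairs of members within each library (linear axes from 0; 3 points per group, bars for mean and SD). All 3 ratios are higher in both Psd1 groups than in the other 3 groups, with the widest spread for SSC1 over ECM10.

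HSP78, the matrix disaggregase and a relative of cytosolic Hsp104, lies at chrIV:971808-974243 on the minus strand. It had the largest difference and the largest spread of the 8 genes. The values were 773, 738 and 617 CPM in pdr3Δ cells with Psd1 and 913, 748 and 596 CPM in wild-type cells with Psd1. In pdr3Δ cells with MTSMge1-mCherry they were 324, 341 and 158 CPM, in wild-type cells with MTSMge1-mCherry 361, 348 and 185 CPM, and with MTSMss116-mCherry 307, 415 and 172 CPM. The groups with Psd1 did not overlap with the others, while replicate 3 was the lowest library of each group. HSP78 was 2.55-fold the control level in wild-type Psd1 cells (95% interval 1.51 to 4.32; edgeR, adjusted p = 0.0565) and 2.38-fold in pdr3Δ Psd1 cells (1.46 to 3.87; edgeR, adjusted p = 0.06), and neither passed the test. With the replicate number as a block, which the check of pairing allowed for the pdr3Δ comparison, HSP78 passed there (log2 fold change 1.33; edgeR, adjusted p = 0.00809) and 625 genes were called in all, against 196 higher and 168 lower without the block. Without MTSMss116-mCherry replicate 2, which held its highest value, HSP78 passed both in pdr3Δ (edgeR, adjusted p = 0.00457) and in wild-type Psd1 cells (edgeR, adjusted p = 0.00732). Those fits called 936 and 1503 genes in all. Without MTSMss116-mCherry replicate 3, HSP78 passed in pdr3Δ cells (edgeR, adjusted p = 0.0367), with 259 genes called in all. Of the 7 fits per comparison that left out libraries, HSP78 passed in 1 for wild-type and in 2 for pdr3Δ Psd1 cells.

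PIM1, the ATP-dependent Lon protease of the matrix, lies at chrII:177874-181275 on the minus strand and is the longest of these genes. Its level was 390.04, 374 and 375 CPM in pdr3Δ cells with Psd1 and 402, 384 and 398 CPM in wild-type cells with Psd1. It was 385 to 421 CPM in pdr3Δ cells with MTSMge1-mCherry, 394 to 419 CPM in wild-type cells with MTSMge1-mCherry and 351 to 382 CPM with MTSMss116-mCherry. The group means ran from 369 to 409 CPM. The log2 fold change of Psd1 over MTSMss116-mCherry was 0.04 in pdr3Δ cells (95% interval -0.16 to 0.24) and 0.11 in wild-type cells (-0.09 to 0.32), so a 2-fold difference lay outside both intervals.

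The low values of HSP78 and MDJ1 in replicate 3 were followed further. HSP78 deviated from its group mean in replicate 3 by -0.51 on average on the log2 scale (-0.71 to -0.19 in the 5 groups), and MDJ1 by -0.19. HSP78, MDJ1 and ECM10 were under the group mean in replicate 3 of all 5 groups, as were 1283 of 6251 genes (20.5%). The same was true of all 14 genes of a list of Msn2 and Msn4 general stress genes and of 11 of 19 cytosolic targets of the heat shock factor, and of 0 of 10 other mitochondrial chaperones. SSC1, HSP60 and HSP10 deviated by -0.11 to 0.098 on the log2 scale over all libraries. Without replicate 3 of every group, a setting chosen after seeing the data, 1 member was called in wild-type and 0 in pdr3Δ Psd1 cells over MTSMss116-mCherry. Over all genes the calls there were 39 and 7. Over MTSMge1-mCherry, 5 members were called in each genotype, with 849 genes in all in wild-type and 194 in pdr3Δ cells. HSP78 then had log2 fold changes of 1.08 in pdr3Δ (edgeR, adjusted p = 0.098) and 1.22 in wild-type Psd1 cells (edgeR, adjusted p = 0.0773) over MTSMss116-mCherry.

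**Figure D3:**
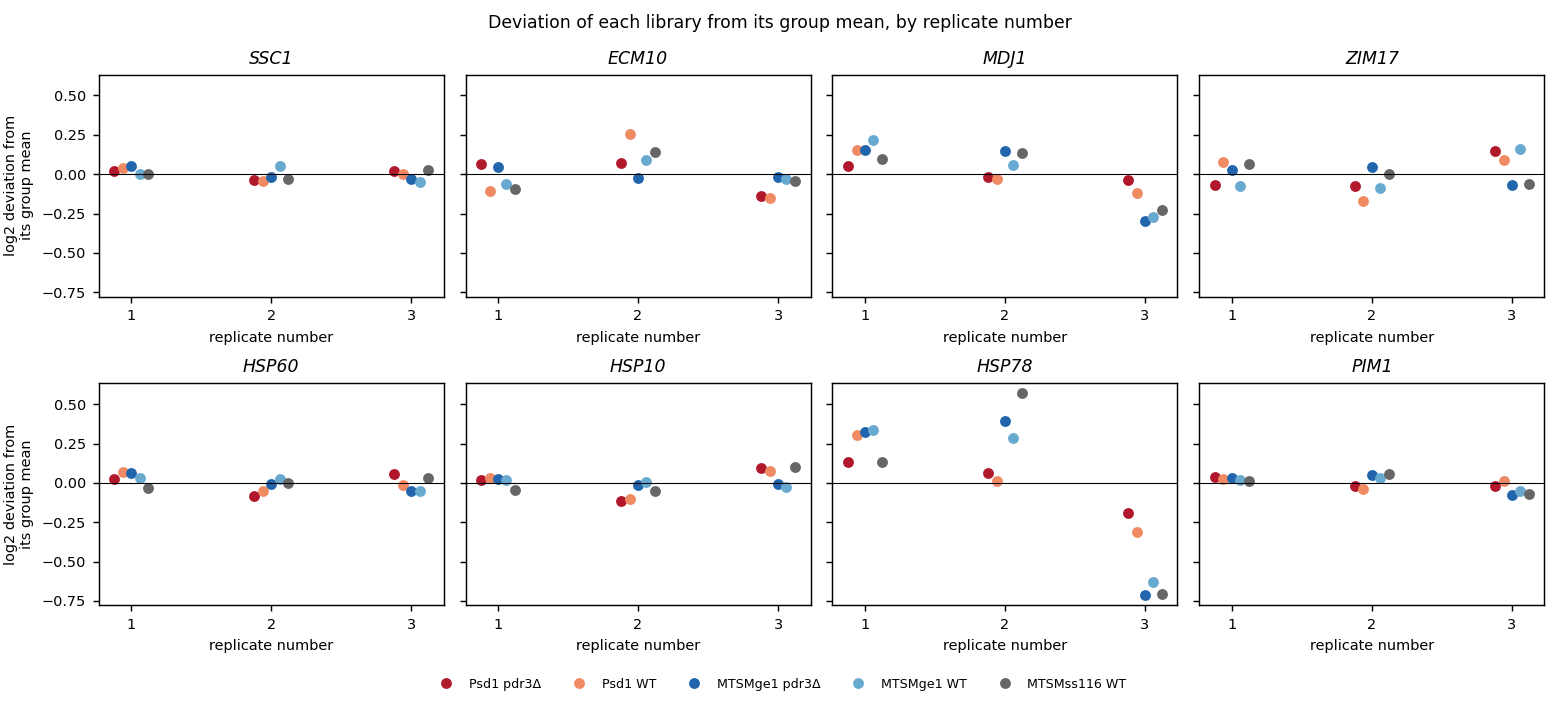
Deviation of each library from the mean of its group (log2 scale) by replicate number, 1 panel per gene and 1 colour per group. HSP78 and MDJ1 lie below 0 in replicate 3 of all 5 groups, and SSC1, HSP60 and HSP10 stay near 0.

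Psd1 was set against the control presequence, which asks how these genes stand when import is impaired. In wild-type cells, 4 of the 8 members were higher with Psd1 than with MTSMss116-mCherry (SSC1, HSP60, HSP10 and MDJ1) and none was lower, against 4.25% of all genes higher and 1.91% lower. Of these, HSP10 and MDJ1 were called at 2-fold or more, against 1.35% of all genes. The median log2 fold change of the 8 was 0.78, against 0.01 for all genes. With fewer libraries the calls changed, among the members and over all genes. The fit without wild-type Psd1 replicate 2 called 2 members (HSP60 and HSP10) and 50 genes in all. That without replicate 3 of every group called 1 member (HSP10) and 39 genes in all. That without MTSMss116-mCherry replicate 2 called 5 members, the fifth being HSP78, and 1503 genes in all. With every library kept, 262 genes were higher and 118 lower. SSC1 lost its call without Psd1 replicate 1, 2 or 3 or MTSMss116-mCherry replicate 1, at adjusted p between 0.0731 and 0.0954 (edgeR), while its fold on the log2 scale was 0.57 or more.

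In pdr3Δ cells, 5 of the 8 members were higher with Psd1 than with MTSMss116-mCherry in wild-type cells, the same 4 and ZIM17, and none was lower. Of all genes, 3.18% were higher and 2.72% lower. HSP60, HSP10 and MDJ1 were called at 2-fold or more, against 0.568% of all genes, and the median log2 fold change of the 8 was 0.79, against 0 for all genes. No member was called without pdr3Δ Psd1 replicate 1, nor without replicate 3 of every group, where only 3 and 7 of all genes were called. The members HSP60, HSP10 and MDJ1 were called without pdr3Δ Psd1 replicate 2 or 3 or MTSMss116-mCherry replicate 1. Those fits called 114, 78 and 105 genes in all, against 196 higher and 168 lower with every library kept. HSP60, HSP10 and MDJ1 had log2 fold changes of at least 0.955 in all these fits. This comparison changes the construct and the PDR3 genotype together, and it shares its 3 control libraries with the wild-type one.

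**Figure D4:**
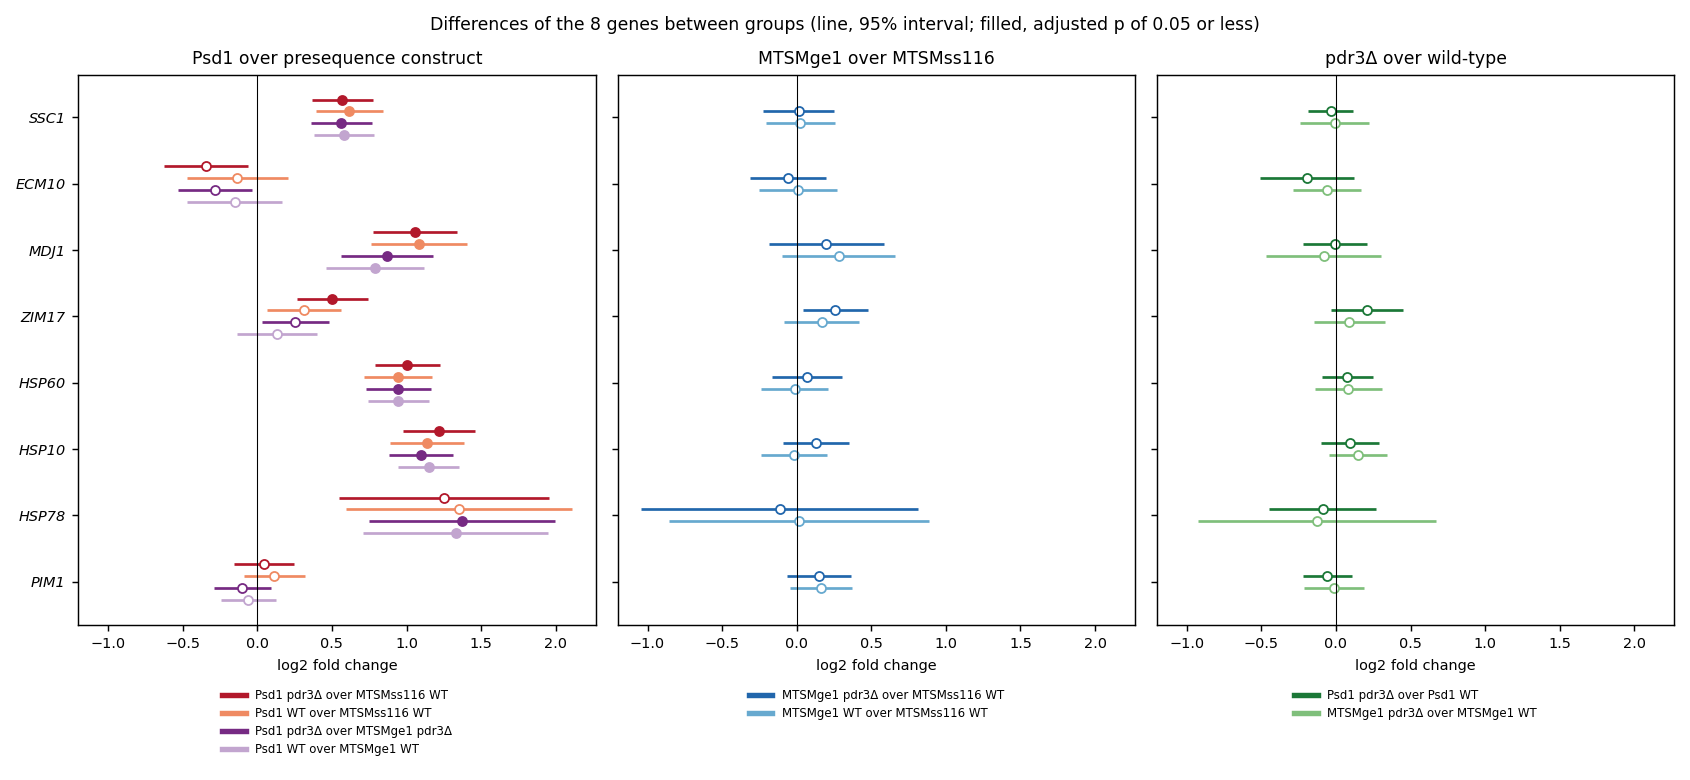
Log2 fold change of each member with its 95% interval in 8 comparisons, filled where the adjusted p was 0.05 or less. With Psd1 over either presequence construct (left), SSC1, MDJ1, HSP60 and HSP10 lie right of 0 and are filled in all 4 comparisons. For MTSMge1 over MTSMss116 (middle) and pdr3Δ over wild-type (right) no point is filled, and every interval includes 0 but that of ZIM17 in pdr3Δ MTSMge1 cells.

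Comparison with MTSMge1-mCherry matched the PDR3 genotype. In wild-type cells, 5 of the 8 members were higher with Psd1 than with MTSMge1-mCherry, namely SSC1 (log2 fold change 0.58), HSP60 (0.94), HSP10 (1.15), HSP78 (1.33; edgeR, adjusted p = 0.034) and MDJ1 (0.79), and none was lower. All genes gave 3.43% higher and 1.46% lower. HSP10 and HSP78 were called at 2-fold or more, against 0.828% of all genes. The intervals of ECM10 (log2 fold change -0.15), ZIM17 (0.13) and PIM1 (-0.06) included 0. Only HSP60 and HSP10 were called without MTSMge1-mCherry replicate 2 or without Psd1 replicate 1 or 2, among 66, 41 and 61 genes in all. These and MDJ1 were called without MTSMge1-mCherry replicate 1, among 107. With every library kept, 211 genes were higher and 90 lower.

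In pdr3Δ cells the same 5 genes were higher with Psd1 than with MTSMge1-mCherry, with log2 fold changes of 0.56 for SSC1, 0.94 for HSP60, 1.10 for HSP10, 1.37 for HSP78 (edgeR, adjusted p = 0.0417) and 0.87 for MDJ1, and none was lower. All genes gave 2.19% higher and 1.74% lower, and HSP10 and HSP78 were called at 2-fold or more, against 0.471% of all genes. ECM10 (-0.28, 95% interval -0.53 to -0.03), ZIM17 (0.25, 0.03 to 0.48) and PIM1 (-0.10, -0.29 to 0.09) did not pass. The intervals of ECM10 and ZIM17 left out 0, but 1304 of 6161 genes had an unadjusted p under 0.05 here (edgeR). No member was called without replicate 1 of pdr3Δ Psd1 or of pdr3Δ MTSMge1-mCherry, where only 4 and 3 of all genes were called. Without pdr3Δ Psd1 replicate 2, HSP60 and HSP10 were called among 16 genes in all, and without its replicate 3 HSP10 among 10. With every library kept, 135 genes were higher and 107 lower. Over all alternatives the log2 fold change of HSP10 stayed between 1.04 and 1.15.

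The Mge1 presequence was set against the Mss116 presequence to ask what is particular to it among presequences. In wild-type cells, 0 of the 8 members differed, against 0.647% of all genes in either direction. At an unadjusted p under 0.05 the count was also 0, with 434 among all genes, and DESeq2 called 0 too. The log2 fold changes were 0.02 for SSC1 (95% interval -0.21 to 0.26), -0.01 for HSP60 (-0.24 to 0.21), -0.02 for HSP10 (-0.24 to 0.20) and 0.28 for MDJ1 (-0.10 to 0.66). The intervals of SSC1, HSP60 and HSP10 leave out the size of their differences under Psd1. That of HSP78 is wider (-0.86 to 0.89).

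In pdr3Δ cells with MTSMge1-mCherry, 0 of the 8 members differed from MTSMss116-mCherry, against 0.0648% of all genes. Here 1 member, ZIM17, had an unadjusted p under 0.05 (log2 fold change 0.26, 95% interval 0.04 to 0.48; edgeR, adjusted p = 0.715), with 338 such genes among all, and DESeq2 called 0. HSP10 differed by 0.13 (-0.09 to 0.35), and the 8 log2 fold changes ran from -0.11 to 0.26.

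Deletion of PDR3 was examined within each construct, since Pdr3 drives the mitoCPR. With Psd1, 0 of the 8 members differed between pdr3Δ and wild-type cells, against 0.715% of all genes, with 0 at an unadjusted p under 0.05 (811 among all genes) and 0 by DESeq2. HSP60 differed by a log2 fold change of 0.08 (95% interval -0.09 to 0.24), HSP10 by 0.10 (-0.10 to 0.29), SSC1 by -0.03 (-0.19 to 0.12), ZIM17 by 0.21 (-0.04 to 0.45) and ECM10 by -0.19 (-0.51 to 0.12). With MTSMge1-mCherry the count was again 0 of 8, against 0.728% of all genes, with 0 at an unadjusted p under 0.05 (323 among all genes) and 0 by DESeq2. There HSP60 differed by 0.08 (-0.14 to 0.31), HSP10 by 0.15 (-0.05 to 0.34) and HSP78 by -0.13 (-0.93 to 0.67). With the replicate block, which the check of pairing allowed in both comparisons, 603 genes were called with Psd1 and 370 with MTSMge1-mCherry, against 44 and 45 without it, and the members called were still 0.

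The interaction asked whether the difference between Psd1 and MTSMge1-mCherry depended on PDR3. It was found for 0 of the 8 members, against 0.016% of all genes, with 0 members at an unadjusted p under 0.05 (181 among all genes) and 0 by DESeq2. The estimates ran from a log2 fold change of -0.14 for ECM10 to 0.11 for ZIM17. The 95% intervals were -0.25 to 0.19 for SSC1, -0.25 to 0.23 for HSP60, -0.31 to 0.19 for HSP10 and, much wider, -0.87 to 0.94 for HSP78.

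Many cytosolic targets of the heat shock factor were higher in the same comparisons. Of 19 such genes, 14 were higher in pdr3Δ Psd1 cells than in MTSMss116-mCherry cells (median log2 fold change 0.95) and 11 in wild-type Psd1 cells (1.15), against 3.18% and 4.25% of all genes, and none was lower. The other 5 and 8 did not pass. FES1, a nucleotide exchange factor, was 0.75 higher on the log2 scale in pdr3Δ and 0.62 higher in wild-type Psd1 cells, and STI1, a co-chaperone of Hsp70 and Hsp90, 1.29 and 1.19 higher. The Hsp70 gene SSA2 was 0.95 and 0.69 higher in pdr3Δ and wild-type Psd1 cells, and BTN2, a sorting factor for misfolded proteins, 2.19 and 1.95 higher. The summed level of the 19 was 22350 to 23700 CPM in pdr3Δ Psd1 and 19120 to 22730.0 CPM in wild-type Psd1 cells, against 8743 to 12010 CPM in the 9 other libraries. In the MTSMge1-mCherry comparisons with the control 0 of 19 were called, against 0.647% of all genes in wild-type and 0.0648% in pdr3Δ cells. A count of 0 in a list this small does not stand apart from those shares. The lists were drawn up with earlier results of these data known.

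In each of 2 other mitochondrial lists 1 gene was called over MTSMss116-mCherry, where 3.18% of all genes were higher in pdr3Δ and 4.25% in wild-type Psd1 cells. A single call in a list this small does not stand apart from those shares. Among 10 other mitochondrial chaperones and Hsp70 partners, which include the import motor subunits, 1 was higher in each comparison of Psd1 with MTSMss116-mCherry. This was JAC1, the J-protein of iron-sulfur cluster assembly, at 65.2 CPM in pdr3Δ and 66.1 CPM in wild-type Psd1 cells, against 41.2 CPM in the control (edgeR, adjusted p = 0.00794 and 0.00801). Of 18 other mitochondrial proteases and peptidases, PHB2, a prohibitin that binds the m-AAA protease and is no protease itself, was the 1 called over the control, with log2 fold changes of 0.40 in pdr3Δ and 0.46 in wild-type Psd1 cells. Genes that did not pass include the import motor subunit PAM17 (0.23 in pdr3Δ and 0.34 in wild-type Psd1 cells, edgeR, adjusted p = 0.165 and 0.0518) and the intermediate peptidase OCT1 (-0.29 and -0.39, edgeR, adjusted p = 0.134 and 0.0605). The i-AAA protease gene YME1 was lower with Psd1 than with MTSMge1-mCherry, by a log2 fold change of -0.39 in pdr3Δ cells (edgeR, adjusted p = 0.0489) and -0.36 in wild-type cells (edgeR, adjusted p = 0.041). There 1.74% and 1.46% of all genes were lower in pdr3Δ and wild-type cells. YME1 was not called over MTSMss116-mCherry, and PHB2 was not called over MTSMge1-mCherry. Of 14 general stress genes, 0 were called over the control in pdr3Δ Psd1 cells (median log2 fold change 0.19) and 1 in wild-type ones (0.58). This was HSP12, a membrane-protecting small heat shock protein, with 1.88 in pdr3Δ (edgeR, adjusted p = 0.0634) and 2.09 in wild-type cells (edgeR, adjusted p = 0.0471). Over MTSMge1-mCherry, 1 and 3 of the 14 were higher in pdr3Δ and wild-type cells, against 2.19% and 3.43% of all genes. Their summed level averaged 2810.0 CPM in pdr3Δ and 3376 CPM in wild-type Psd1 cells, against 1576 CPM, 1892 CPM and 1650.0 CPM in pdr3Δ MTSMge1-mCherry, wild-type MTSMge1-mCherry and MTSMss116-mCherry cells. RPN4, the activator of proteasome genes, was the 1 of 6 stress regulators higher than in the control, by 0.66 in pdr3Δ and 0.89 in wild-type Psd1 cells on the log2 scale. HSF1 itself was not called in any comparison.

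**Figure D5:**
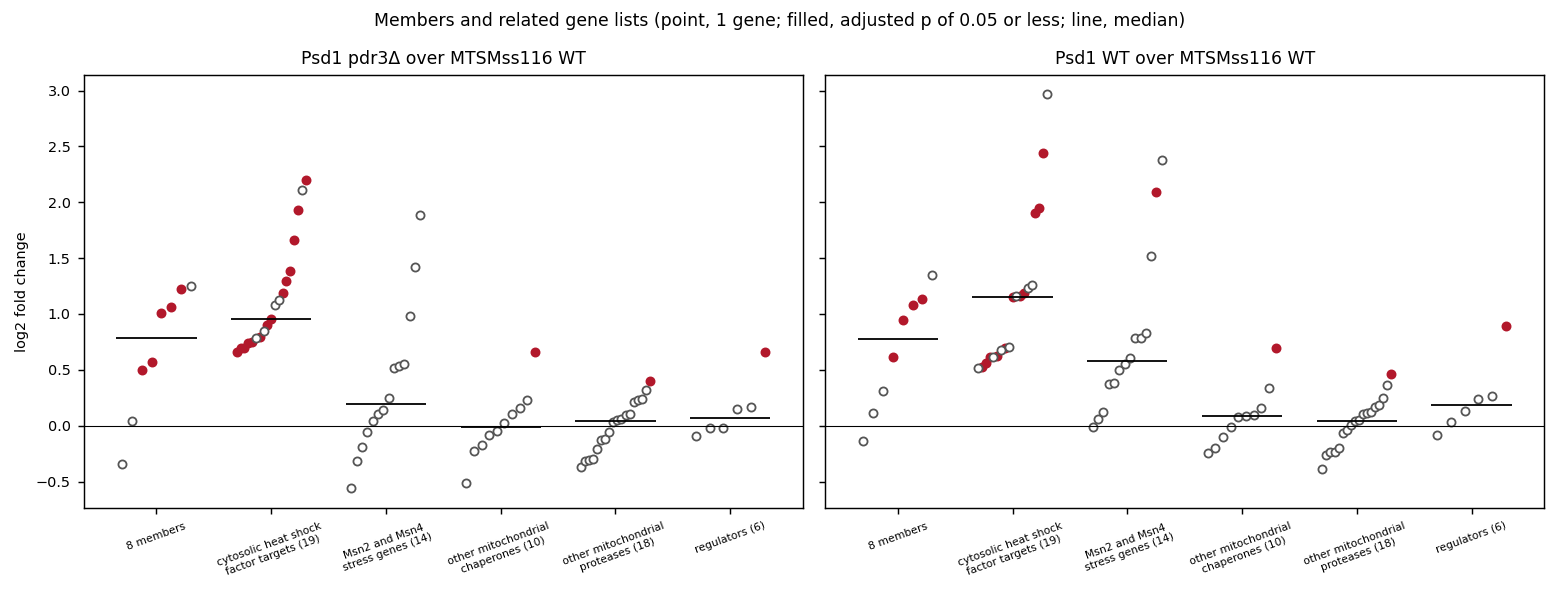
Log2 fold change of every gene of 6 sets in pdr3Δ (left) and wild-type (right) Psd1 cells over MTSMss116-mCherry cells, filled where the adjusted p was 0.05 or less, with the median of each set as a line. The 8 members (medians 0.79 and 0.78) and the 19 cytosolic heat shock factor targets (0.95 and 1.15) lie highest, and the medians of the other mitochondrial chaperones (-0.01 and 0.08) and proteases (0.04 in both) lie near 0.

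The heat shock element printed above was also used to draw a list that no expression value entered. Of 86 other genes with an exact match, 83 passed the filter, and 11 of them (13.3%) were higher in pdr3Δ Psd1 cells and 11 (13.3%) in wild-type Psd1 cells than in the control, against 3.18% and 4.25% of all genes. Of the 83, 3 and 1 were lower. Their median log2 fold changes were 0.03 and 0.09, against 0 and 0.01 for all genes, so the median gene with the element lay close to that of all genes. Of the 5 members with the clearest separation, HSP60, HSP10 and HSP78 held the exact element and SSC1 and MDJ1 did not.

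Across the 15 libraries, members fell into different company by their log2(CPM + 1) profiles, among 6237 other genes. HSP78 was most like SIS1 (r = 0.988), HSP82 and AHA1, all genes of cytosolic chaperones or their partners, and MDJ1 most like HSP82 (0.984), STI1 and SDH5. HSP60 was most like YNL277W-A (0.984), MRPS12 and COA1, SSC1 most like YNL277W-A (0.983), CBP4 and COA1, and HSP10 most like MRPS16 (0.981), MRPS12 and GRX5, which apart from YNL277W-A encode mitochondrial proteins of the ribosome, of respiratory chain assembly or of iron-sulfur cluster assembly. ZIM17 was most like XDJ1 (0.906), ISR1 and COX23, PIM1 most like the proteasome genes RPT5 (0.914) and RPT2 with MAG1 between them, and ECM10 most like RME2 (0.872), IML3 and YPK9. Among the members themselves, HSP60 and HSP10 were closest (0.997), and PIM1 ran with none of the other 7 (from -0.176 to 0.173). All these profiles share the same libraries and the same 5 groups, so the correlations are a description.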

How the data were processed

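Libraries of 15 W303 cultures were made with a stranded mRNA kit, and both ends were read for 59 bp. Alignment by the authors used DRAGEN and R64, featureCounts gave a count per gene, and the deposited values are raw counts without normalization. All columns were used, and groups and replicate numbers came from the labels. The labels give a peptone medium with raffinose, the study's methods a synthetic one.

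Each comparison was fitted to the counts of its own groups, using the quasi-likelihood test of edgeR 4.0.16 (R 4.3.3). Low genes were removed by filterByExpr, libraries were scaled by TMM, and p was adjusted by Benjamini-Hochberg across the whole filtered table. A call is an adjusted p of 0.05 or less. With 3 against 3 libraries, an exact two-sided permutation test of 1 gene cannot go below 0.10. CPM use TMM library sizes. Depth was 9128344 to 15953662 counts per library, and each member had at least 233 counts in every library, ECM10 in pdr3Δ Psd1 replicate 3 being the lowest. Fits were tested on simulated data.

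Named genes are all 8 members, label checks, at most 3 per list and comparison by p, and the 3 nearest profiles per member. The ratios between members and the low values in replicate 3 were chosen after their values were seen. Members and lists were chosen with earlier results of these data known.

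Gene names and sequences came from the RefSeq annotation of R64, which holds 6047 of the 7127 identifiers, and were searched with Python 3.11.15. Pairing by replicate number was accepted where all 3 same-number pairs correlated above 0.1 in their deviations from group means. This was so for pdr3Δ Psd1 with MTSMss116-mCherry (r = 0.143, 0.475 and 0.418), for pdr3Δ with wild-type MTSMge1-mCherry (0.197, 0.34 and 0.557) and for pdr3Δ with wild-type Psd1 (0.147, 0.343 and 0.442). Alternatives were DESeq2 1.42.0, RLE size factors, total library size, no filter, all groups in 1 fit, the replicate block, each library left out and, added after seeing the data, replicate 3 of every group left out.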

Additional observations from a re-analysis of the deposited data

How the results depend on the processing

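DESeq2, RLE size factors, total library size, no filter, all groups in 1 fit and the replicate block kept every count of members called within 1.5 times of the reported one. Leaving out libraries moved it. For Psd1 over MTSMss116-mCherry it ranged from 2 to 5 in wild-type and from 0 to 6 in pdr3Δ cells when 1 library was left out, and was 1 and 0 without replicate 3 of every group. For Psd1 over MTSMge1-mCherry it ranged from 2 to 5 in wild-type and from 0 to 5 in pdr3Δ cells when 1 library was left out. These fits have fewer libraries, and their calls over all genes moved too. With 1 library left out, those over MTSMss116-mCherry ran from 50 to 1503 in wild-type and from 3 to 936 in pdr3Δ cells. Over MTSMge1-mCherry they ran from 41 to 426 in wild-type and from 3 to 326 in pdr3Δ cells. HSP78 in wild-type Psd1 over MTSMss116-mCherry cells was called by DESeq2 (adjusted p = 0.000385), with all 5 groups in 1 fit (0.021) and with the replicate block (0.00899), against 0.0565 in edgeR. The range over its alternatives was 0.000385 to 0.204. For pdr3Δ Psd1 cells DESeq2 gave 0.000377 and the joint fit 0.0338, over a range of 0.000377 to 0.217. In pdr3Δ Psd1 over MTSMge1-mCherry cells HSP78 missed with total library size (0.0541).

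The replicate block changed no call of a member other than those of HSP78 over MTSMss116-mCherry. Where same-number pairs did not all pass the check, it moved the calls over all genes to 867 in wild-type Psd1 over MTSMss116-mCherry, 1153 in wild-type and 949 in pdr3Δ Psd1 over MTSMge1-mCherry and 192 in pdr3Δ MTSMge1-mCherry over MTSMss116-mCherry. Signs turned only for folds without a call. With total library size, MTSMge1-mCherry over MTSMss116-mCherry gave 0.025 for HSP60 and 0.019 for HSP10, without replicate 3 of every group 0.019 and 0.033, and the ZIM17 interaction -0.034. With 1 library left out, MTSMge1-mCherry over MTSMss116-mCherry gave -0.019 to 0.028 for SSC1 and -0.055 to 0.021 for HSP10, the PDR3 deletion with MTSMge1-mCherry -0.381 to 0.144 for HSP78, and the interaction -0.22 to 0.001 for ECM10. Of 24 further folds, 14 turned under some alternative, to 0.277 at most in size and with 0 calls.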
